A study of Macaca mulatta with 24 samples.

Results

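The enzymes described here make, convert and break down prostaglandins, and 10 genes were named for them by their known function: *PTGS1*, *PTGS2*, *PTGIS*, *PTGES*, *PTGES2*, *PTGES3*, *PTGDS*, *HPGDS*, *TBXAS1* and *HPGD*. Of these 10 members, 8 could be matched to the table of 32386 genes and all 8 passed the filter on low counts. *PTGES* and *PTGDS* were not matched by symbol and were not analysed here. The values are RNA-seq read counts from biopsies of omental white adipose tissue (WAT), the visceral fat that hangs from the stomach, of 24 female rhesus macaques in 4 groups of 6. All animals were young adults, 4 years old per the labels, and all carried implants for 3 years. A higher age at the biopsy stands in the study's methods, and age was not used here. The controls (*C*) had cholesterol implants and ate monkey chow. The *T* animals had testosterone implants, which mimic hyperandrogenemia, and ate chow. The *WSD* animals had cholesterol implants and ate a high-fat western-style diet, and the *T* + *WSD* animals had testosterone implants and the same diet. Every library came from a separate animal, and a biopsy can hold any of the cells of the fat pad and of its serosal surface.

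Prostaglandins are short-lived lipid signals made from arachidonic acid, which phospholipases free from cell membranes. The cyclooxygenases *PTGS1* and *PTGS2* turn it into a common precursor, and terminal synthases turn that precursor into prostacyclin (*PTGIS*), thromboxane (*TBXAS1*), prostaglandin E2 (*PTGES*, *PTGES2*, *PTGES3*) or prostaglandin D2 (*PTGDS*, *HPGDS*). *HPGD*, an NAD-dependent prostaglandin dehydrogenase, starts their breakdown. In adipose tissue prostaglandin E2 is known to restrain lipolysis, and other prostaglandins act on the formation of new adipocytes.

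The libraries held 6899185 to 28270776 counts each (median 20630512.5). In 8 libraries, 2 in each group, a single gene (ENSMMUG00000038258) took 9.92% to 54.7% of the counts, against 0.879% to 2.51% in the other 16, and these 8 are called the library batch below. 1 control library, *C* replicate 1, stood apart. It lies in the library batch, so the 16 libraries outside the batch leave it out as well. In *C* replicate 1 the summed level of 9 adipocyte markers was 3375 CPM (counts scaled to a common library size), against 11988 to 21118 in the other 5 controls, and the sum of 11 mesothelial markers was 40067 CPM, against 2967 to 10175. Mesothelial cells line the serosal surface of the omentum. Markers of adipocytes were present in every library, which does not tell one fat depot from another. The marker sums thus differed between the biopsies. For the members, the lists and the genes named from them, the value or the call in *T* + *WSD* against *C* is therefore also given without *C* replicate 1. In these bulk samples fewer cells of a type and less RNA per cell cannot be told apart.

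In *T* + *WSD* against *C*, the transcripts of *PTGS2* and *PTGIS* were lower past the thresholds given below, and no member was higher past them. *PTGS2*, the inducible cyclooxygenase, was lower by 2.34 ± 0.68 (SE) on the log2 scale, or 5.06-fold. *PTGIS*, the prostacyclin synthase, was lower by 1.39 ± 0.32 (SE), or 2.63-fold. A gene was called when its adjusted p was under 0.05 and its fold change over 1.5, and by this rule 2 of 8 members were called, both lower. Over all 15207 genes tested, 10% were called in this comparison and 5.29% were called lower. At an unadjusted p under 0.05, 4 of 8 members passed, against 32.1% of all genes. The median log2 fold change of the 8 members was -0.40, beside -0.04 over all genes. DESeq2 called the same 2 members, against 10.9% of all genes. Without *C* replicate 1, *PTGIS* was the only member called, against 5.87% of all genes, and in the 16 libraries outside the batch 0 members were called by edgeR, against 0.505%, with 2 at an unadjusted p under 0.05.

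**Figure D1:**
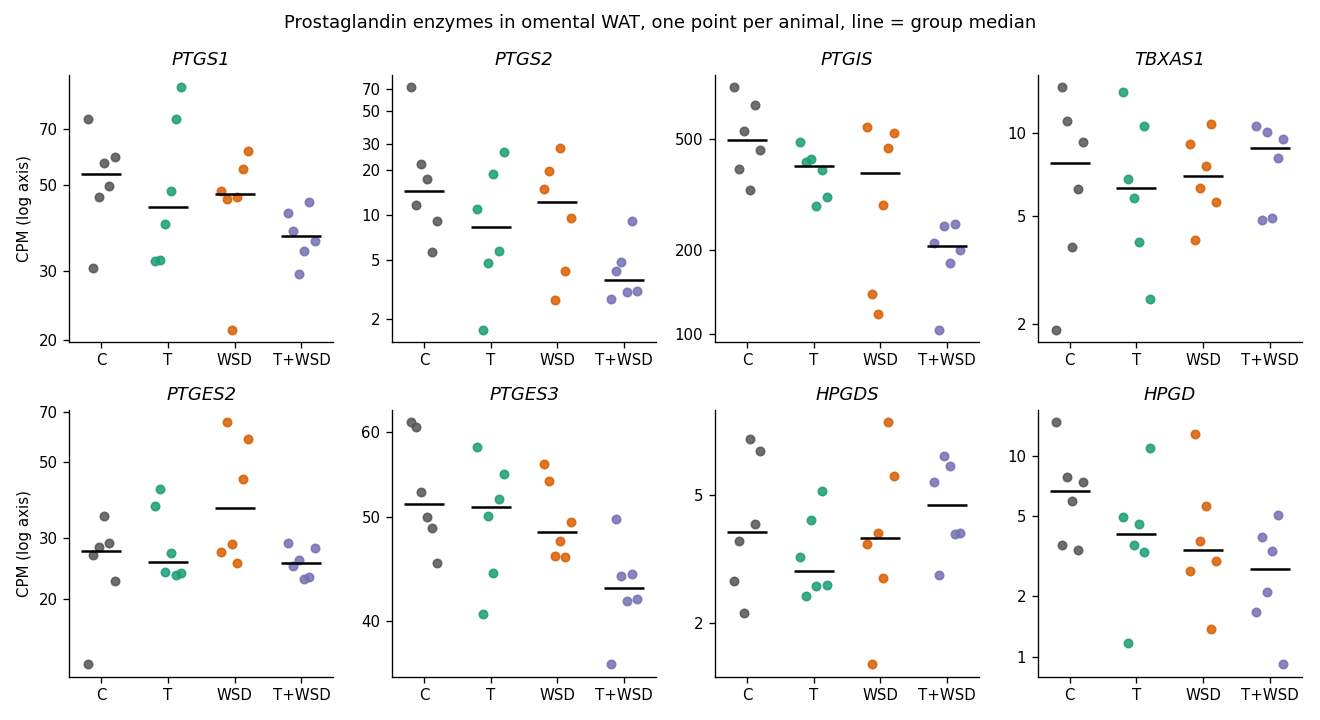
CPM (log axis) of the 8 measured members in each of the 24 animals, by group, with a line at the group median. *PTGIS* in the 6 *T* + *WSD* animals, between 104 and 247 CPM, lies under every control, while the *T* + *WSD* and *C* animals overlap for *HPGDS* and *TBXAS1*.

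*PTGS1* and *PTGS2* catalyse the same reaction, and *PTGS1* is the form that most cells express steadily. *PTGS1* ran from 30.5 to 74.1 CPM in *C* with a median of 53.5, from 31.9 to 89.8 in *T* with a median of 44.0, from 21.2 to 61.3 in *WSD* with a median of 47.5, and from 29.6 to 45.2 in *T* + *WSD* with a median of 37.1. The 4 groups overlap, and in *T* + *WSD* only 1 of 6 animals was below every control. The log2 fold change of *PTGS1* in *T* + *WSD* against *C* was -0.50, with a 95% interval from -1.005 to 0.01 (adjusted p = 0.187 by edgeR's quasi-likelihood test with Benjamini-Hochberg adjustment, as are all adjusted p values beside log2 fold changes below unless another test is named). The value was -0.36 without *C* replicate 1 (adjusted p = 0.393).

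*PTGS2* varied more than *PTGS1* within the groups. In the control animals *PTGS2* was at 72.5, 11.7, 21.98, 17.5, 5.62 and 9.11 CPM in replicates 1 to 6. In *T* + *WSD* it was at 2.75, 4.24, 4.82, 3.03, 9.07 and 3.08 CPM in replicates 7 to 12. The highest control stood far above the other 5, and 5 of the 6 *T* + *WSD* animals lay below every control, *T* + *WSD* replicate 11 being the exception. With either treatment alone the level of *PTGS2* ran from 1.71 to 26.7 CPM in *T* (median 8.35) and from 2.69 to 28.1 CPM in *WSD* (median 12.2), all below the highest control, and 2 of 6 animals in each group were below every control. The difference in *T* + *WSD* against *C* passed the test (adjusted p = 0.0223). It did not pass without *C* replicate 1, where the log2 fold change was -1.52 ± 0.61 (SE) and the adjusted p 0.112. In the 16 libraries outside the library batch it was -1.42 (adjusted p = 0.283), and with the batch as a covariate -2.22 (adjusted p = 0.0342). Within the batch the difference in mean log2 CPM was -3.05, with 2 animals against 2. The controls there were *C* replicate 1, at 72.5 CPM, and *C* replicate 2, at 11.7 CPM. Outside the batch, where the *T* + *WSD* animals overlapped the controls, the difference was -1.38.

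*PTGIS* ends the route to prostacyclin, a lipid that relaxes vessels and restrains platelets. In the control animals *PTGIS* was at 765, 390, 531, 327, 659 and 457 CPM in replicates 1 to 6. In *T* + *WSD* it was at 212, 104, 244, 181, 247 and 201 CPM in replicates 7 to 12. The lowest control stood above the highest *T* + *WSD* animal, and such a separation, with all 6 animals below every control, was found in 4.12% of all genes tested. In *T* the level of *PTGIS* ran from 288 to 485 CPM with a median of 400, and in *WSD* from 118 to 550 CPM with a median of 376. *WSD* animals fell into a low pair (replicates 20 and 21, at 139 and 118 CPM) and 4 animals from 290 to 550 CPM. The call for *PTGIS* in *T* + *WSD* against *C* (adjusted p = 0.00778) held without each animal in turn, with log2 fold changes from -1.5 to -1.23. It was -1.23 without *C* replicate 1 (adjusted p = 0.0253). In the 16 libraries outside the batch the log2 fold change was -1.16 (adjusted p = 0.0927). The same order within the batch and outside it follows from the separation of all 6 animals and is no further evidence.

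Against *T* alone, *PTGIS* was lower in *T* + *WSD* by 0.95 ± 0.32 (SE) on the log2 scale, and all 6 *T* + *WSD* animals lay below every *T* animal. Such a separation was found in 3.10% of all genes in this comparison. The adjusted p was 0.0693, so *PTGIS* was not called there, where 3.77% of all genes were. DESeq2 gave an adjusted p of 0.0369 for the same comparison, and edgeR called it when only these groups were fitted (adjusted p = 0.0122) and without *WSD* replicate 20 or *WSD* replicate 21 (lowest adjusted p = 0.0395). Against *WSD* alone the difference of *PTGIS* in *T* + *WSD* was -0.81 ± 0.32 (SE), with an adjusted p of 0.154, and it was called only without *WSD* replicate 21 (adjusted p = 0.0474).

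**Figure D2:**
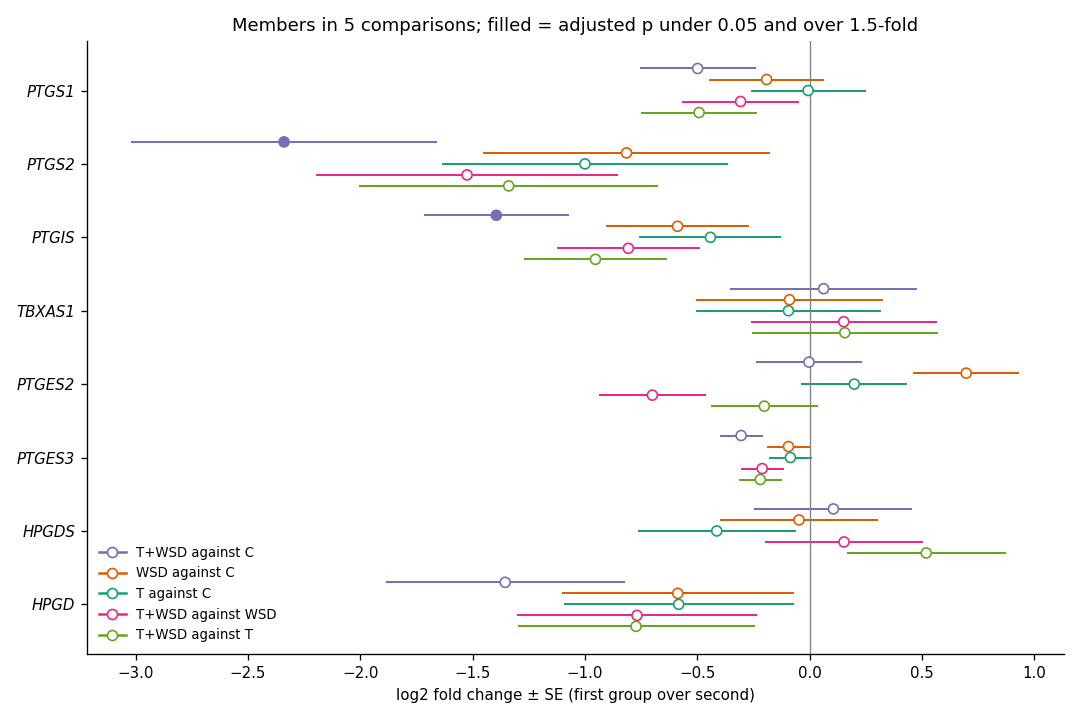
Log2 fold changes with standard errors for the 8 members in 5 comparisons, the first group over the second, filled where adjusted p was under 0.05 and the fold change over 1.5. *PTGS2* at -2.34 and *PTGIS* at -1.39, both in *T* + *WSD* against *C*, are the only filled points.

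*TBXAS1* makes thromboxane, which constricts vessels and activates platelets, from the same precursor. *TBXAS1* ran from 1.91 to 14.8 CPM in *C* (median 7.78), from 2.47 to 14.1 in *T* (median 6.31), from 4.07 to 10.8 in *WSD* (median 6.96) and from 4.81 to 10.6 in *T* + *WSD* (median 8.85). The groups overlap throughout. Its log2 fold change in *T* + *WSD* against *C* was 0.06, with a 95% interval from -0.75 to 0.88, and -0.12 without *C* replicate 1 (adjusted p = 0.883). To compare the prostacyclin and thromboxane branches within each animal, the log2 ratio of *PTGIS* to *TBXAS1* counts was taken, which removes the library size. Its mean was 6.28 ± 1.35 (SD, n = 6) in *C*, 5.92 ± 0.70 with *T*, 5.40 ± 0.78 with *WSD* and 4.63 ± 0.36 with *T* + *WSD*. The ratio was lower in *T* + *WSD* than in *C* by 1.64 (exact two-sided permutation p = 0.00649, adjusted p = 0.0325 over 10 tests), with 4 of 6 animals below every control. It was lower in *T* + *WSD* than in *T* by 1.28 (exact permutation p = 0.00649, adjusted p = 0.0325), with 5 of 6 animals below every *T* animal. Without *C* replicate 1, whose ratio of 8.62 was the highest of all, the first difference was -1.17 and neither call held (adjusted p = 0.0541 for each, the second through the adjustment over the 10 tests alone). Each of these 2 calls was lost in 7 of 24 runs that left out 1 animal, those without *C* replicate 1 or any 1 of the *T* + *WSD* animals (adjusted p up to 0.0866), and in the 16 libraries outside the batch (adjusted p = 0.286). The smallest p that 6 animals against 6 allow is 0.00216. The ratio in *T* + *WSD* against *WSD* differed by -0.76 (exact permutation p = 0.0584, adjusted p = 0.146).

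The ratio of *PTGS2* to *PTGS1* was taken in the same way. Its mean log2 value was -1.67 ± 1.13 (SD, n = 6) in *C*, -2.60 ± 1.21 with *T*, -2.16 ± 1.14 with *WSD* and -3.16 ± 0.61 with *T* + *WSD*. In *T* + *WSD* against *C* the difference of -1.49 had an exact permutation p of 0.0216 and an adjusted p of 0.0722, and 3 of 6 animals lay below every control. The difference was -1.16 without *C* replicate 1 (adjusted p = 0.137). A lower share of *PTGS2* among the cyclooxygenase transcripts therefore did not pass the correction over the 10 tests.

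*PTGES2* and *PTGES3* are terminal synthases of prostaglandin E2, and *PTGES3* is also the p23 co-chaperone of HSP90. *PTGES2* had medians of 25.4 CPM in *T* + *WSD* and 27.5 CPM in *C*, with a log2 fold change of 0.00 (95% interval from -0.47 to 0.46), and -0.12 without *C* replicate 1 (adjusted p = 0.784). The highest values of *PTGES2* were in *WSD*, where it ran from 25.4 to 65.6 CPM with a median of 36.8, and 3 of 6 *WSD* animals were above every control. In *T* it ran from 23.4 to 41.8 CPM with a median of 25.6. The log2 fold change of *PTGES2* was 0.70 in *WSD* against *C* (unadjusted p = 0.00737, adjusted p = 0.159) and -0.70 in *T* + *WSD* against *WSD* (adjusted p = 0.105). Its interaction of testosterone and diet was -0.90 ± 0.33 (SE), with an unadjusted p of 0.0134 and an adjusted p of 0.229, so none of these 3 values passed. *PTGES3* had the smallest standard error of the 8 members. It ran from 45.2 to 61.3 CPM in *C* (median 51.3) and from 36.4 to 49.8 CPM in *T* + *WSD* (median 43.0), with 5 of 6 *T* + *WSD* animals below every control. Its log2 fold change of -0.31 ± 0.10 (SE) had an adjusted p of 0.0313 but lay under the fold threshold, and without *C* replicate 1 the adjusted p was 0.117. *PTGES3* medians were 51.0 CPM in *T* and 48.4 CPM in *WSD*.

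*HPGDS*, the prostaglandin D2 synthase of mast cells and other haematopoietic cells, had low counts. It ran from 2.15 to 7.51 CPM in *C* (median 3.85), from 2.42 to 5.18 in *T* (median 2.92), from 1.49 to 8.47 in *WSD* (median 3.67) and from 2.83 to 6.64 in *T* + *WSD* (median 4.66), on 10 to 211 counts per library. The groups overlap, and the log2 fold change in *T* + *WSD* against *C* was 0.11, with a 95% interval from -0.58 to 0.80, and 0.016 without *C* replicate 1 (adjusted p = 0.986). Of 7 mast cell markers 3 were matched, and 0 of these 3 were called in *T* + *WSD* against *C* by edgeR or DESeq2, with 0 at an unadjusted p under 0.05 and with the sum of the 3 from 16.1 to 50.6 CPM in *C* and from 13.7 to 42.7 CPM in *T* + *WSD*. Macrophages are known to express *TBXAS1* and *HPGDS*. Of 8 macrophage markers 0 were called in this comparison by edgeR, with 1 at an unadjusted p under 0.05, and 1 was called higher by DESeq2. Leaving out *C* replicate 1, 0 markers of either list were called by edgeR, with 0 mast cell and 1 macrophage marker at an unadjusted p under 0.05.

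*HPGD*, the breakdown enzyme, was at a median of 6.69 CPM in *C* (3.38 to 14.8), 4.09 CPM in *T* (1.17 to 11.001), 3.39 CPM in *WSD* (1.37 to 12.9) and 2.74 CPM in *T* + *WSD* (0.915 to 5.07). In *T* + *WSD* 4 of 6 animals lay below every control. The log2 fold change of *HPGD* in *T* + *WSD* against *C* was -1.36 ± 0.53 (SE), with an unadjusted p of 0.0181 and an adjusted p of 0.0804, so it did not pass. Without *C* replicate 1 it was -0.996 (adjusted p = 0.236).

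*HPGD* varied with *PTGS2* across animals. On log2 CPM centred by group, the Pearson correlation of *PTGS2* and *HPGD* was 0.748 over the 24 animals (permutation p within groups 9e-05, adjusted p = 0.00252 over the 28 pairs of members). Spearman's rho on ranks centred in the same way was 0.692 (permutation p = 0.00098, adjusted p = 0.0274). It was the only pair of the 28 that passed by either measure. Without the 2 animals farthest from the median of *PTGS2* (*C* replicate 1 and *T* replicate 14) r was 0.632, and in the 16 libraries outside the batch it was 0.652. With the mesothelial sum regressed out of both genes r was 0.763. This pair was singled out after its values were seen. Outside the members, *C2H3orf52* (r = 0.884), *RPL4* (r = 0.877) and *MOSPD1* (r = 0.854) had a higher r with *PTGS2*, also centred by group. A close relation to *PTGS2* is therefore not particular to *HPGD*.

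**Figure D3:**
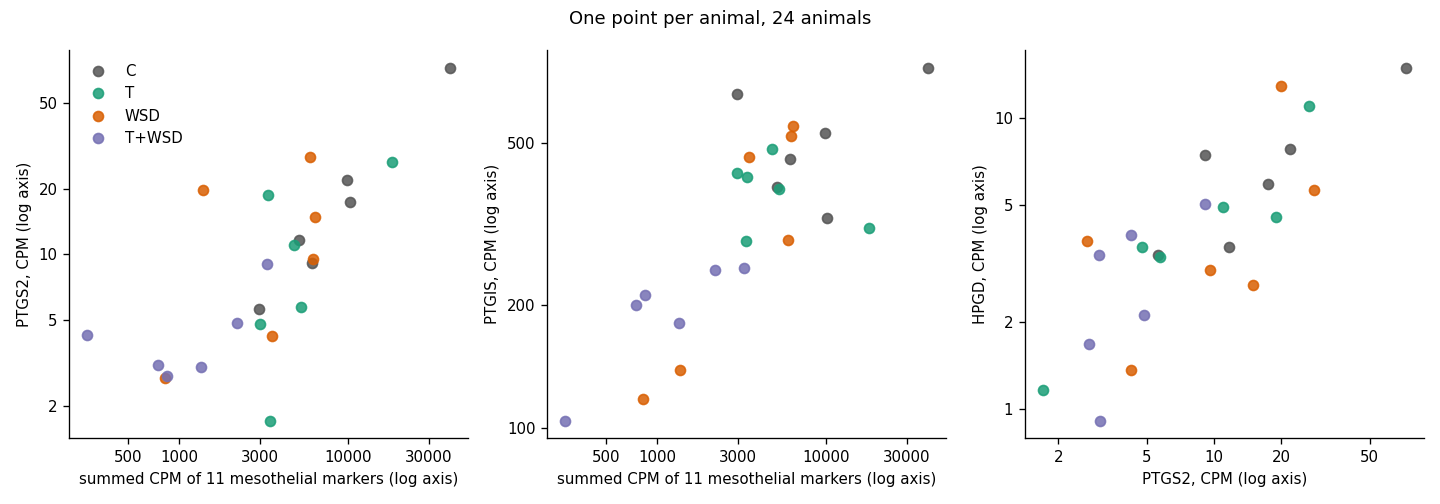
Each point is 1 animal, coloured by group, on log axes. *PTGS2* (left) and *PTGIS* (middle) in CPM are plotted against the summed CPM of 11 mesothelial markers, and *HPGD* against *PTGS2* (right), where r centred by group was 0.748. *C* replicate 1, at 40067 CPM of mesothelial markers and 72.5 CPM of *PTGS2*, is the point at the upper right of each panel.

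Mesothelial markers moved with the members that fell. Of 12 listed markers 11 were matched, and 9 of these 11 were called lower in *T* + *WSD* against *C*, with a median log2 fold change of -2.62. *KRT8* was matched through the study's supplementary lists from these same animals, so its value is not independent evidence. Their summed level ran from 2967 to 40067 CPM in *C* (median 7977), from 2990 to 18075 in *T* (median 4111), from 820 to 6369 in *WSD* (median 4723) and from 286 to 3285 in *T* + *WSD* (median 1092), and 5 of 6 *T* + *WSD* animals were below every control. *KRT7*, an epithelial keratin, was at 0 in at least 1 animal, and the other markers were above 0 in every animal. Without *C* replicate 1 the same number, 9 of 11, were called. Across animals, centred by group, the log2 mesothelial sum correlated with *PTGS2* (r = 0.645, permutation p = 0.00133, adjusted p = 0.0151 over 16 relations), *PTGIS* (r = 0.593, permutation p = 0.00613, adjusted p = 0.0245) and *PTGS1* (r = 0.578, permutation p = 0.00283, adjusted p = 0.0151). Rank correlations for *PTGS2* (rho = 0.591, permutation p = 0.0101, adjusted p = 0.0621), *PTGIS* (rho = 0.441, permutation p = 0.0986, adjusted p = 0.263) and *PTGS1* (rho = 0.560, permutation p = 0.0117, adjusted p = 0.0621) did not pass. Leaving out the 2 animals farthest from the median of the mesothelial sum gave r of 0.624 for *PTGS2*, 0.474 for *PTGIS* and 0.601 for *PTGS1*, and the 16 libraries outside the batch gave 0.778, 0.380 and 0.760. With the mean of the mesothelial markers as a covariate, the log2 fold change in *T* + *WSD* against *C* was -0.82 ± 1.08 (SE) for *PTGS2* and 0.03 ± 0.34 (SE) for *PTGIS* (adjusted p = 0.999 for each), and 0 of 15207 genes were called by edgeR in that fit, with 3.47% of them and 0 of 8 members at an unadjusted p under 0.05. *HPGD* was at -1.11 ± 0.85 (SE) in the same fit. Since the mesothelial markers themselves differ between these groups, their part and that of the treatments in the level of *PTGS2* and *PTGIS* cannot be told apart.

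Other cell markers moved less. Of 9 adipocyte markers 2 were called higher in *T* + *WSD* against *C*, and their sum was at a median of 14672 CPM in *C* and 25146 CPM in *T* + *WSD*. *PTGIS* correlated with the adipocyte sum across animals (r = -0.543, permutation p = 0.00283, adjusted p = 0.0151; rho = -0.626, permutation p = 0.00637, adjusted p = 0.0621), with r of -0.560 without the 2 animals farthest from its median and -0.468 outside the batch. Endothelial cells and smooth muscle are known sources of prostacyclin. Of 8 endothelial markers 5 were called higher in *T* + *WSD*, and their sum was 1015 to 1684 CPM in *C* and 1890 to 2935 CPM in *T* + *WSD*, above every control in all 6 animals. Of 7 smooth muscle and pericyte markers 2 were called higher. *FABP4* of the adipocyte list and *CLDN5* of the endothelial list were matched through the study's supplementary lists, as was *KRT8*. When *C* replicate 1 was left out, 0 adipocyte, 2 endothelial and 2 smooth muscle markers were called. The part of these cells in the level of *PTGIS* was not tested. *PTGS2* is a known immediate early gene. Of 14 other immediate early genes listed 8 were matched, and 1 was called lower in *T* + *WSD* against *C*, as it was without *C* replicate 1. Their sum ran from 154 to 304 CPM in *C* and from 102 to 183 CPM in *T* + *WSD*, with 5 of 6 *T* + *WSD* animals below every control. Gene by gene, 3 of the 8 were higher and 5 lower in *T* + *WSD* against *C*. In *WSD* against *C* 7 of 8 were higher, and in *T* against *C* 5 of 8. In *T* + *WSD* against *WSD* all 8 were lower, 2 at an unadjusted p under 0.05, beside 20% of all genes. The interaction was negative for all 8, 3 at an unadjusted p under 0.05, beside 13.5%. In both, 0 were called by edgeR.

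**Figure D4:**
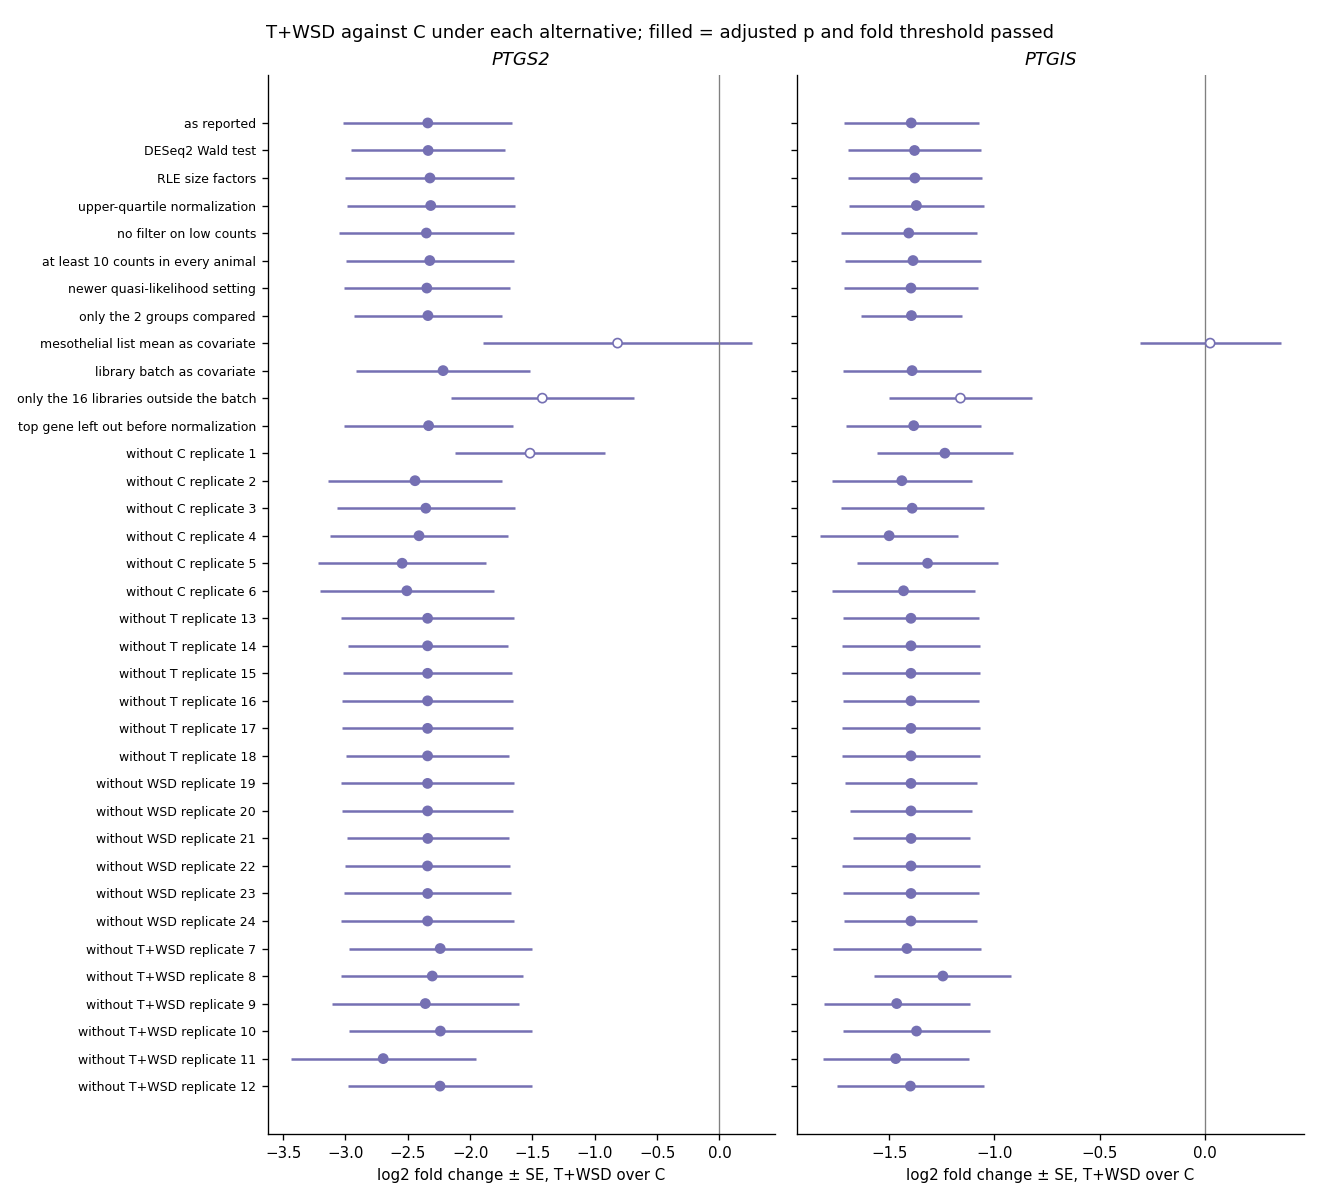
Log2 fold changes with standard errors of *PTGS2* (left) and *PTGIS* (right) in *T* + *WSD* against *C* as reported, under each other processing and without each animal in turn, filled where the gene was called. *PTGS2* moved to -1.52 without *C* replicate 1, and *PTGIS* moved to 0.03 with the mesothelial covariate.

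With a single treatment, no member was called. By edgeR, 0 of 8 members were called in *WSD* against *C* and 0 in *T* against *C*, and 0 of all 15207 genes were called in either comparison. At an unadjusted p under 0.05, 1 member (*PTGES2*) passed in *WSD* against *C*, against 18.5% of all genes, and 0 in *T* against *C*, against 8.63%. DESeq2 called 0 members in either, against 1.58% and 0.029% of all genes. The log2 fold changes ran from -0.81 (*PTGS2*) to 0.70 (*PTGES2*) in *WSD* against *C* and from -1.0 (*PTGS2*) to 0.20 (*PTGES2*) in *T* against *C*. For *PTGIS* they were -0.59 and -0.44, with 95% intervals from -1.21 to 0.03 and from -1.06 to 0.18. These comparisons share the control animals. The sign for *PTGS2* in *T* against *C* was not kept in the 16 libraries outside the batch, where it was 0.058, and without *C* replicate 1 *PTGS2* was at -0.01 in *WSD* against *C* and -0.20 in *T* against *C*.

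For *T* + *WSD* against *WSD*, 0 of 8 members were called by edgeR or DESeq2, against 0.815% and 2.62% of all genes. At an unadjusted p under 0.05 there were 4 (*PTGS2*, *PTGIS*, *PTGES2* and *PTGES3*, all lower), against 20% of all genes. In *T* + *WSD* against *T*, 0 members were called by edgeR and 1 by DESeq2 (which called 6.10% of all genes), and 2 (*PTGIS* and *PTGES3*) had an unadjusted p under 0.05, against 25.9% of all genes. For the interaction of testosterone and diet, called at an adjusted p under 0.1, there were 0 members by edgeR or DESeq2, against 0.809% and 3.02% of all genes, and at an unadjusted p under 0.05 there was 1 (*PTGES2*), against 13.5%. The interaction was -0.52 ± 0.91 (SE) for *PTGS2* and -0.37 ± 0.45 (SE) for *PTGIS*, with 95% intervals from -2.31 to 1.27 and from -1.24 to 0.51, so a combined effect beyond the sum of the single ones was not detected for either.

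The receptors, the enzymes that free arachidonic acid, the other converting enzymes and transporters and the lipoxygenase branch were taken from 4 lists, with 33 of 41 genes tested. Of these 33, 9 were called lower and 3 higher in *T* + *WSD* against *C*, where 10% of all genes were called, and 18 had an unadjusted p under 0.05, against 32.1% of all genes. Several of these genes were among those the study chose on the same animals, and *PLA2G15* and *LTB4R* were matched through its lists of changed genes, so the lists are not independent evidence of a direction. Leaving out *C* replicate 1 left 4 called lower and 2 higher, and in the 16 libraries outside the batch 1 gene, *LTB4R2*, was called (adjusted p = 0.0474). In *T* + *WSD* against *T* 3 of the 33 (*PTGFR*, *PTGR1* and *ALOX15*) were called, against 3.77% of all genes, with 1 to 5 called without each animal in turn (1 without *T* replicate 17, *T* replicate 18 or *T* + *WSD* replicate 8, 9 or 10, and 5 without *C* replicate 1) and 1, *PTGR1*, in the 16 libraries (adjusted p = 0.0306). By edgeR, 0 of the 33 were called in either single treatment against *C*, in *T* + *WSD* against *WSD* or for the interaction, where 12 (*WSD*), 5 (*T*), 5 and 2 had an unadjusted p under 0.05, beside 18.5%, 8.63%, 20% and 13.5% of all genes. The 5 against *WSD* and the 2 for the interaction are smaller shares than those of all genes. DESeq2 called 3 of them in *WSD* against *C* and 1 in *T* + *WSD* against *WSD*, where it called 1.58% and 2.62% of all genes.

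Among 7 prostanoid receptors tested, 2 were called lower and 1 higher in *T* + *WSD* against *C*, with a median log2 fold change of -0.09. *PTGFR*, the prostaglandin F receptor, is known to hold back adipocyte formation. It ran from 65.0 to 313 CPM in *C* and from 12.4 to 42.7 CPM in *T* + *WSD*. All 6 *T* + *WSD* animals lay below every control, as in 4.12% of all genes. The log2 fold change of *PTGFR* was -2.19 ± 0.53 (SE, adjusted p = 0.00976), and -1.73 without *C* replicate 1 (adjusted p = 0.0338). In the 16 libraries outside the batch the call was lost (-1.72, adjusted p = 0.119). *PTGFR* was also lower in *T* + *WSD* than in *T*, by 1.95 (adjusted p = 0.0329), a call lost in 7 of 24 runs without 1 animal (adjusted p up to 0.087) and in the 16 libraries (adjusted p = 0.0572). *PTGDR*, a prostaglandin D2 receptor, was lower by 1.02 ± 0.33 (SE, adjusted p = 0.0374) and was not called without *C* replicate 1 (adjusted p = 0.123) or in 8 other runs without 1 animal. *PTGER2*, a prostaglandin E2 receptor that raises cyclic AMP, was higher by 1.30 ± 0.31 (SE, adjusted p = 0.0094), with 1.44 to 4.50 CPM in *C* and 4.26 to 9.89 CPM in *T* + *WSD*, and remained called without *C* replicate 1 (adjusted p = 0.0268) but not in the 16 libraries (1.34, adjusted p = 0.0928). *PTGER3*, the prostaglandin E2 receptor known to restrain lipolysis in adipocytes, was at a log2 fold change of -0.09 (95% interval from -0.41 to 0.23), and 0.022 without *C* replicate 1. *PTGIR*, the receptor of the *PTGIS* product, was at 0.18 (95% interval from -0.70 to 1.06), and -0.015 without *C* replicate 1. *TBXA2R*, the thromboxane receptor, was at -0.97 (adjusted p = 0.0648), and -0.95 without *C* replicate 1 (adjusted p = 0.113), but was called by DESeq2 (adjusted p = 0.0432). *PTGER1* was under the filter, with at most 20 counts in any library.

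Of 10 phospholipases tested, 3 were called lower and 1 higher in *T* + *WSD* against *C*. *PLA2G2A*, a secreted phospholipase, was lower by 2.57 ± 0.84 (SE, adjusted p = 0.0386), with 43.7 to 714 CPM in *C* and 3.96 to 132 CPM in *T* + *WSD*. *PLA2G7*, which hydrolyses platelet-activating factor, was lower by 1.78 (adjusted p = 0.0155), with all 6 animals below every control, as in 4.12% of all genes. *PLB1*, phospholipase B, was lower by 1.51 (adjusted p = 0.0335). *PLA2G15*, a lysosomal phospholipase, was higher by 0.62 (adjusted p = 0.0415). Of the 10, 0 were called without *C* replicate 1 (3 lower and 1 higher with it), 6 had an unadjusted p under 0.05, and the adjusted p of *PLA2G7* was 0.0521. *PLA2G4A*, the cytosolic phospholipase that supplies the cyclooxygenases with arachidonic acid, was at -0.37 (adjusted p = 0.0704), and -0.30 without *C* replicate 1 (adjusted p = 0.189).

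**Figure D5:**
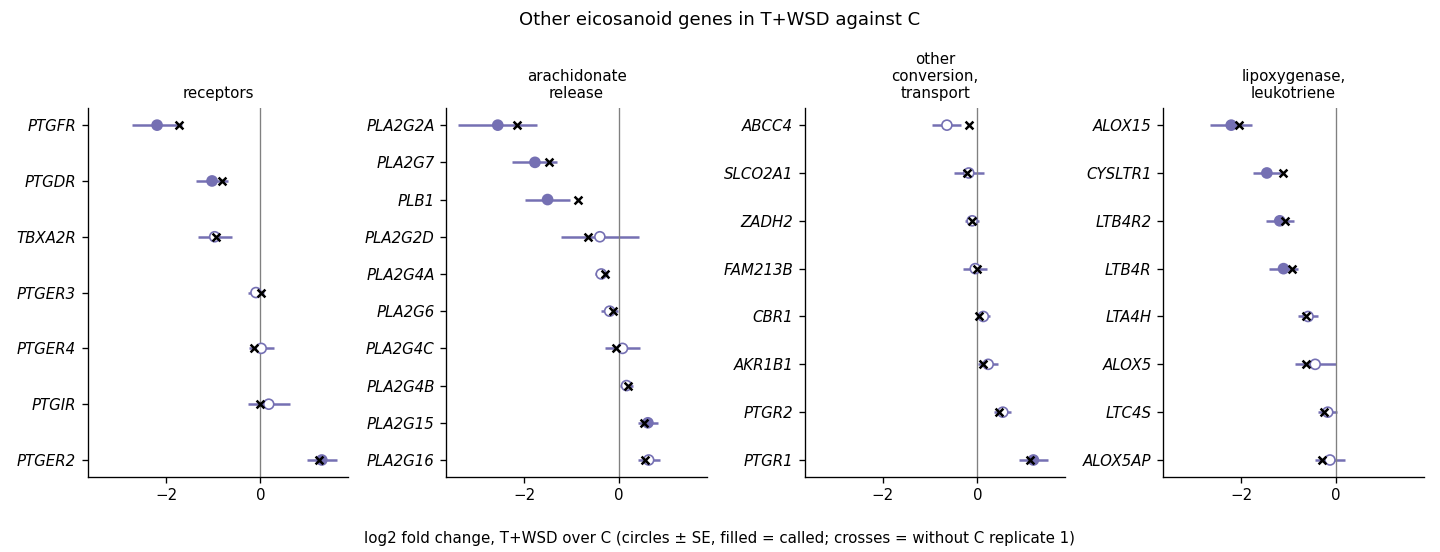
Log2 fold changes with standard errors in *T* + *WSD* against *C* for the 33 tested genes of the 4 other eicosanoid lists, filled where called, with crosses for the value without *C* replicate 1. *ALOX15* at -2.22 and *PTGFR* at -2.19 lie at the left, *PTGER2* at 1.30 and *PTGR1* at 1.19 at the right.

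Of 8 other converting enzymes and transporters, 1 was called, *PTGR1*, the reductase that acts on prostaglandins after *HPGD* and also inactivates leukotriene B4. It ran from 6.35 to 12.8 CPM in *C* and from 13.8 to 27.8 CPM in *T* + *WSD*, above every control in all 6 animals, as were 3.49% of all genes. *PTGR1* was higher than in *C* by 1.19 ± 0.31 (SE, adjusted p = 0.0133) and higher than in *T* by 1.71 ± 0.31 (SE, adjusted p = 0.00566), and the call against *C* remained without *C* replicate 1 (adjusted p = 0.0364) but not in the 16 libraries outside the batch (1.06, adjusted p = 0.126). *HPGD* and *PTGR1*, successive steps of prostaglandin breakdown, thus had fold changes of opposite sign, of which only that of *PTGR1* passed the test.

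The lipoxygenases use the same arachidonic acid to make leukotrienes and related lipids. Of 8 genes tested in this branch 4 were called lower in *T* + *WSD* against *C* and 0 higher, with a median log2 fold change of -0.85. *ALOX15*, a lipoxygenase, ran from 559 to 1308 CPM in *C*, 375 to 957 with *T*, 146 to 1060 with *WSD* and 56.8 to 253 with *T* + *WSD*. All 6 *T* + *WSD* animals were below every control and every *T* animal. Such separations were found in 4.12% (against *C*) and 3.10% (against *T*) of all genes. The log2 fold change of *ALOX15* was -2.22 ± 0.45 (SE, adjusted p = 0.0043) against *C* and -1.62 ± 0.44 (SE, adjusted p = 0.0341) against *T*. The call of *ALOX15* against *T* was lost in 7 of 24 runs without 1 animal (adjusted p up to 0.0724), and in the 16 libraries neither call held (adjusted p = 0.0603 against *C* and 0.102 against *T*). *CYSLTR1*, a receptor of cysteinyl leukotrienes, was lower than in *C* by 1.46 (adjusted p = 0.00492), *LTB4R2* by 1.19 (adjusted p = 0.012) and *LTB4R* by 1.11 (adjusted p = 0.0196). The last pair are receptors of leukotriene B4 whose genes lie side by side, and reads could be shared between them. When *C* replicate 1 was left out, *ALOX15*, *CYSLTR1* and *LTB4R2* were called. *ALOX5* and *ALOX5AP*, which start leukotriene synthesis, were at -0.44 (adjusted p = 0.526) and -0.12 (adjusted p = 0.843), and without *C* replicate 1 at -0.64 (adjusted p = 0.311) and -0.29 (adjusted p = 0.563). With the mesothelial covariate 0 of the 33 genes were called by edgeR, with 0 at an unadjusted p under 0.05, and *ALOX15* was at -0.13, *PTGFR* at -0.10, *PTGR1* at 0.59 and *PTGER2* at 0.23.

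The genes whose level across the 24 animals was most like that of *PTGIS* were *KLK7* (r = 0.946), *NFE2L3* (r = 0.940) and *NALF2* (r = 0.935), by Pearson correlation of log2 CPM. For *PTGS2* they were *C2H3orf52* (r = 0.914), *MOSPD1* (r = 0.883) and *RPL4* (r = 0.878). These are descriptions over animals that share the group differences, and no test was made.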

How the data were processed

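From RNA depleted of ribosomal RNA the authors obtained single-end reads, trimmed them (Trimmomatic 0.36), aligned them to rheMac8 (STAR 2.5.2b) and deposited raw counts per gene, 1 column for each animal. The counting tool and its strand setting are not given in the sources used here, and *PTGS2*, *PTGIS* and *HPGD* each overlap a non-coding gene in RefSeq's current rhesus annotation, another assembly. Counts were normalized by TMM and tested with edgeR 4.0.16 (filterByExpr, minimum count 10 and total 15, quasi-likelihood F-test, robust, with legacy=TRUE) in a fit of all 24 animals, and with DESeq2 1.42.0 as an alternative. Genes past 1.5-fold with adjusted p under 0.05 were called, and interactions with adjusted p under 0.1. CPM use TMM library sizes. SE is the log2 fold change over the root of F, and 95% intervals are 1.96 SE either way. Ratios add 0.5 to each count, with exact permutation over 924 splits. Correlations used 100000 permutations within groups. Total counts were 6899185 to 28270776, and counting error is one part of the spread. The edgeR fit at its main settings was tested on simulated counts for *T* + *WSD* against *C*, and the other fits and comparisons were not.

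Members and lists were chosen with earlier results of these data known. Named are all 10 members, every gene of the 4 pathway lists called by edgeR at its main settings in any comparison, and the 3 genes most like each called member. Marker genes at 0 or matched through the study's lists are also named. Other named genes (*PTGER1*, *PTGER3*, *PTGIR*, *TBXA2R*, *PLA2G4A*, *ALOX5* and *ALOX5AP*) were added for their role. Symbols were matched through a gene name table or the study's supplementary lists, the latter for *PLA2G15*, *LTB4R*, *KRT8*, *FABP4* and *CLDN5*. Fibroblast and lymphocyte lists were also measured. No positions, gene lengths or sequences were used here, so levels are not compared between genes. The library batch was defined after the counts were seen.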

Additional observations from a re-analysis of the deposited data

Results flagged for a closer look

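With 6 animals a group, 32 sets of values (8 members in 4 groups) were checked for an animal far from the others. The check used CPM without logs, and 3 stood out, each the highest of its group. The cutoff flags about 1 in 20 sets of normally distributed values, and whether that rate holds for CPM was not tested. *PTGS2* in *C* replicate 1 was 72.5 CPM, where the other controls reached 21.98 CPM, and this library also had the highest mesothelial and the lowest adipocyte marker sum of the controls. *PTGS2* in *T* + *WSD* replicate 11 was 9.07 CPM, the only *T* + *WSD* animal inside the range of the controls, and the same animal had the highest *HPGD* of its group, at 5.07 CPM. *HPGD* in *WSD* replicate 20 was 12.9 CPM, where the other *WSD* animals reached 5.64 CPM, on 95 counts, and this library lies in the library batch.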

How the results depend on the processing

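Direction and call were kept for *PTGS2* and *PTGIS* in *T* + *WSD* against *C* under DESeq2, the other normalizations and low-count filters, the newer quasi-likelihood setting, the fits of only these groups and the batch covariate. The number of members called in *T* + *WSD* against *C* was 0 with the mesothelial covariate and in the 16 libraries outside the batch, and 1 to 2 without each animal. In *T* + *WSD* against *T* it was 1 with DESeq2 and when only these groups were fitted, and 0 to 1 without each animal, as in *T* + *WSD* against *WSD*. With the mesothelial covariate, 0 genes were called in each pathway list, in the 4 pathway lists against *T* and among the cell markers. In the 16 libraries, prostanoid receptors, arachidonate release and other converting enzymes had 0 called, the lipoxygenase branch 1, the 4 lists against *T* 1 and the cell markers 0. Arachidonate release had 2 without the low-count filter and 0 to 5 without each animal (0 without *C* replicate 1), other converting enzymes 2 without the fold threshold and 1 to 2 without each animal, and the lipoxygenase branch 2 with at least 10 counts in every animal. Of the 4 lists, DESeq2 called 3 genes in *WSD* against *C*, 1 in *T* + *WSD* against *WSD* (as did the newer setting) and 6 in *T* + *WSD* against *T*. It called 1.58%, 2.62% and 6.10% of all genes there. In *T* + *WSD* against *T* the fit without the low-count filter called 1 and that of only these groups 7. The shares of all genes in those fits are not given here. Without each animal the 4 lists gave 0 to 2 in *T* + *WSD* against *WSD*, 1 to 5 in *T* + *WSD* against *T* and 0 to 1 for the interaction. Cell markers called fell to 12 with a fold change over 2. The causes were not tested, beyond fewer animals in the 16 libraries.

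The log2 ratio of *PTGIS* to *TBXAS1* was -1.30 in *T* + *WSD* against *C* and -1.35 against *T* in the 16 libraries, where 4 animals against 4 cannot give an exact p under 0.0286, and 0.044 in *T* against *C*. Without each animal these ratios ran from -1.95 to -1.17, -1.45 to -1.07 and -0.67 to 0.11, with adjusted p up to 0.0866 in the first and second. In *T* + *WSD* against *WSD* it ran from -0.999 to -0.54, and the ratio of *PTGS2* to *PTGS1* in *T* + *WSD* against *C* from -1.79 to -1.16, with adjusted p from 0.0361 to 0.144.

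Log2 fold changes reversed sign with the mesothelial covariate for *PTGS1* (0.21 in *T* + *WSD* against *C*, 0.042 in *WSD* against *C*, 0.12 in *T* against *C*, 0.17 and 0.090 in *T* + *WSD* against *WSD* and against *T*, 0.048 for the interaction), *PTGIS* (0.026, 0.24, 0.23 and 0.44 in *T* + *WSD* against *C*, *WSD* and *T* and the interaction), *PTGES2* (0.028 in *T* + *WSD* against *C*) and *HPGDS* (0.16 in *WSD* against *C*). They reversed in the 16 libraries in *WSD* against *C* for *HPGDS* (0.019) and *TBXAS1* (0.0069), in *T* against *C* for *PTGS1* (0.25), *PTGS2* (0.058), *PTGES2* (-0.21) and *PTGES3* (0.037), in *T* + *WSD* against *WSD* for *HPGDS* (-0.015) and in *T* + *WSD* against *T* for *PTGES2* (0.036). *PTGES2* in *T* + *WSD* against *C* was 0.019 with DESeq2, 0.020 with RLE factors, 0.015 with the top gene left out, 0.028 with the upper quartile and 0.0042 with at least 10 counts in every animal, and *PTGS1* in *T* against *C* was 0.012 without a filter. None of these reversed values passed the test. Without each animal, values that changed sign or call ran from -2.70 to -1.52 for *PTGS2*, -0.12 to 0.10 for *PTGES2*, -0.041 to 0.32 for *HPGDS* and -0.12 to 0.34 for *TBXAS1* in *T* + *WSD* against *C*. They ran from -0.36 to 0.16 for *HPGDS* and -0.29 to 0.18 for *TBXAS1* in *WSD* against *C*, -0.23 to 0.11 for *PTGS1* and -0.39 to 0.17 for *TBXAS1* in *T* against *C*, -0.99 to -0.63 for *PTGIS* and -0.012 to 0.46 for *HPGDS* in *T* + *WSD* against *WSD*, and -1.03 to -0.81 for *PTGIS* and -0.028 to 0.45 for *TBXAS1* in *T* + *WSD* against *T*. For the interaction they ran from -0.0082 to 0.54 for *TBXAS1* and -0.51 to 0.34 for *HPGD*.

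No paired analysis was possible because each animal has its own number and no number is shared between groups. The ratio of *PTGDS* to *HPGDS* was not run, since *PTGDS* was not matched, and the interaction has no fit of only 2 groups. The correlation of *PTGS2* and *HPGD*, with its alternatives chosen after seeing the data, ran from 0.688 to 0.806 without each animal. *HPGDS*, *TBXAS1* and *HPGD* had 10 to 352 counts per library and *PTGS2* as few as 15.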

Other observations

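The summed level of 9 fibroblast markers ran from 8529 to 26053 CPM in *C* and from 7720 to 17097 CPM in *T* + *WSD*, and 1 of the 9 was called higher. Of 5 T and NK cell markers matched and of 4 B and plasma cell markers matched, 0 were called in *T* + *WSD* against *C* by edgeR or DESeq2, with 0 at an unadjusted p under 0.05. Their sums were low, at most 19.4 CPM for the former and 7.72 CPM for the latter in any control. *KLRD1*, a marker of natural killer cells, was at 0 in 1 *WSD* and 1 *T* + *WSD* animal, and *MS4A1*, a B cell marker, in 1 *T* animal.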
